A study of Mus musculus with 2 samples.

Results

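Semaphorins, plexins and neuropilins are described here in mouse ureters that were cultured with or without an inhibitor of WNT secretion. The members are all genes whose array name belongs to semaphorin classes 3 to 7, to the plexins or to the neuropilins, without regard to their values. There were 31 such genes among 29924 on the array, of which 20 were semaphorins, 9 plexins and 2 neuropilins. Each gene was represented by its brightest probe, chosen by the signal and not by the response.

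Semaphorins are secreted or membrane-bound guidance proteins, first studied in growing axons and later in blood vessels, immune cells and epithelia. Plexins are their receptors, and an activated plexin acts through a cytoplasmic GTPase-activating domain on the cytoskeleton and on integrin adhesion. Most secreted class 3 semaphorins do not bind plexins directly but need a neuropilin as the ligand-binding partner, and neuropilins also bind growth factors of the VEGF family. In the ureter, these proteins can be made by the urothelium, the mesenchyme and its derivatives (smooth muscle and the fibrocytes of the lamina propria), by vessels and by nerves.

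Ureters were taken from newborn (P0) wild-type pups of the NMRI strain and kept for 18 h on transwell membranes, either with 5 µM IWP-2 or with its solvent DMSO. IWP-2 inhibits PORCN, the acyltransferase that WNT proteins need for secretion. RNA of 1 pool of 5 to 6 ureters filled each channel of 2 two-colour arrays. In replicate 1 both pools were female, the control was labelled green and the treated pool red, whereas in replicate 2 both pools were male and the dyes were swapped. Sex and dye orientation therefore changed together and cannot be told apart. The p-values and intervals rest only in part on the spread between the 2 arrays. Of their 6.49 degrees of freedom 1 is residual, and the rest come from a variance that limma shares over all genes tested. The comparison asks which genes respond to the loss of WNT secretion after 18 h.

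The treatment was visible on both arrays. *Axin2*, a direct target of WNT signaling, had a normalized signal of 181 in the female and 154 in the male control pool and of 42.2 and 46.7 in the corresponding treated pools (mean log2 fold change −1.91, limma adjusted p = 0.000826). *Porcn* itself, the target of the drug, had log2 fold changes of −0.08 and −0.00, and was not called. All 6 lists of cell type markers (urothelium, smooth muscle, fibroblast, endothelium, Schwann cell and neuron, macrophage) had members well above background. As these are bulk samples, fewer cells of a type and less RNA per cell cannot be told apart.

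Signals are arbitrary fluorescence units after loess normalization within each array, averaged over up to 4 spots per probe. Within an array they can be compared between the pools for 1 probe, but not between probes, because probes differ in how well they hybridize. The 2 arrays were not normalized to each other, and their control pools carried different dyes. Comparisons of pools across the arrays, given below, are therefore descriptions of the signals. All 31 members were well above background in all 4 channels. This is a lenient mark, as extra probes of *Sema3a*, *Sema4d* and *Sema5b* at the floor of 15 also had it. A gene entered the test if its mean signal was above 100 in at least 1 of the 2 conditions, which 14336 genes and 23 members did. The 8 members below that threshold were *Plxna1*, *Plxna4*, *Plxnb3*, *Sema3a*, *Sema3d*, *Sema3e*, *Sema4f* and *Sema6b*, with signals between 26.7 and 109.

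**Figure D1:**
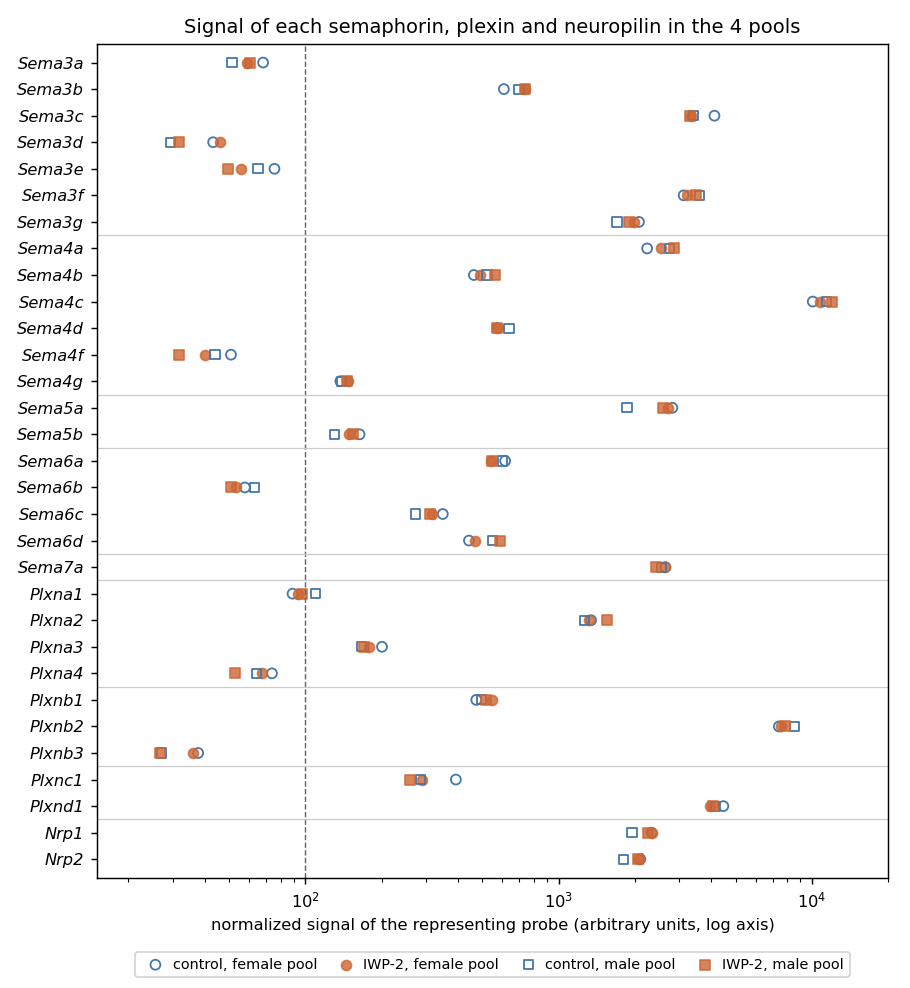
Normalized signal of each semaphorin, plexin and neuropilin (log axis, arbitrary units), with open symbols for control pools, filled symbols for IWP-2 pools, circles for female and squares for male pools. The dashed line marks a signal of 100. The female control pool is the highest symbol for 16 and the lowest for 10 of the 31 members, the male control pool is the highest for 5 and the lowest for 10, and 8 members lie at signals between 26.7 and 109. Over all genes tested, the female control pool was the highest for 31% and the lowest for 29%. For the male control pool these shares were 26.5% and 24.1%.

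No member passed the test for a change with IWP-2. Of the 23 members tested, 0 were called by limma at an adjusted p under 0.05, whereas 1.25% of all genes tested were called (0.886% lower and 0.363% higher). At an unadjusted p under 0.05 there were 2 members, *Plxnc1* and *Sema6a*, compared with 12.9% of all genes. The adjusted p-values of the members ran from 0.217 to 0.999. A filter patterned on the one the study used for lower genes, and applied here in each direction to both arrays (a control signal above 100 and a change of at least 1.5-fold), passed 0 members, compared with 0.363% of genes lower and 0.0783% higher. On either array, 0 of the 23 reached 1.5-fold, and few of all genes tested did so (358 of 14336).

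The intervals were narrow beside the 1.5-fold filter. The mean log2 fold changes of the members tested lay between −0.29 and 0.21, and their standard errors between 0.0665 and 0.122. The 95% limma intervals of all 23 members stayed within 1.5-fold in both directions, with the farthest limits at −0.51 and 0.51. This was also so for 13856 of the 14336 genes tested and is not particular to the family. The interval contained 0 for 21 of the 23 members.

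**Figure D2:**
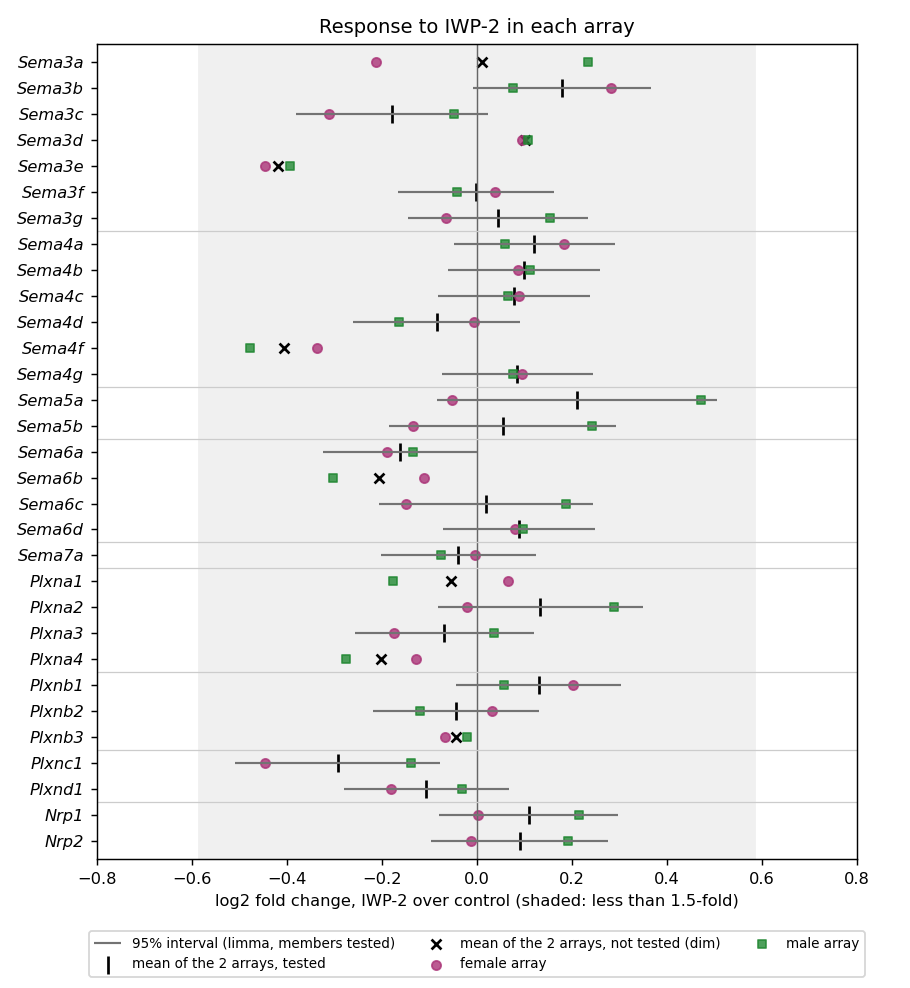
Log2 fold change of IWP-2 over control for each member, in the female array (circles) and in the male array (squares), with the mean as a bar and its 95% limma interval as a line for members tested, and the mean as a cross for the 8 members too dim to be tested. The shaded band covers changes of less than 1.5-fold, and all points and intervals lie inside it.

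Direction was mixed within the family. Of the 23 members tested, 14 had a mean log2 fold change above 0 and 9 below, compared with 47% of all genes above 0. The sign was the same on both arrays for 14 members, with 8 higher and 6 lower, and differed for 9. This share of 60.9% with the same sign stood beside 54.8% over all genes tested. The median log2 fold change of the members was 0.05, and the median of all genes −0.01 with an interquartile range of −0.06 to 0.05. On the female array the members' median was −0.01 and on the male array 0.07. Members with opposite signs were mostly those brighter in the green-labelled pool of both arrays (7 of 9), whereas among all genes with opposite signs the share was 49.2% (3191 of 6480). The part of the dye in these values was not tested, and it cannot be told apart from that of sex.

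**Figure D3:**
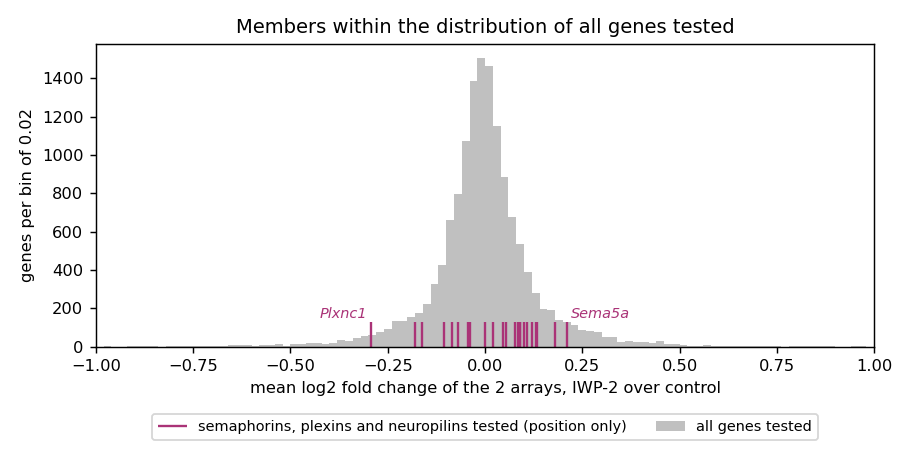
Number of genes per bin of 0.02 (grey bars) by their mean log2 fold change over both arrays, for all 14336 genes tested, of which 14305 fall in the range shown. Vertical lines mark the positions of the 23 members tested, which run from −0.29 (Plxnc1) to 0.21 (Sema5a).

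The class 3 semaphorins are secreted ligands. Of the 7 on the array, 4 were tested, and *Sema3c* and *Sema3b* stood at opposite ends. *Sema3c*, a ligand that signals through both neuropilins and is known from heart outflow tract development, had signals of 4124 and 3409 in the control pools and of 3324 and 3300 in the treated pools (female, then male). Both treated pools were below both controls, but the difference came mainly from the bright female control pool: the log2 fold change was −0.31 on the female and −0.05 on the male array. Its mean of −0.18 (SE 0.0842) did not pass the test (limma adjusted p = 0.477).

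A second *Sema3c* probe is informative here, because it reads the same transcript at another place. The first 30 bases of the 60-base probes are given in the order brightest, then second, at chr5:17235981-17236040 and chr5:17234078-17234137 of mm9, both on the plus strand.
Sema3c brightest probe: ccctgtgtagagaaagcaaactagatgtag
Sema3c second probe: acgtaaagtcaagagtgactcataaagagc
The second probe had signals of 736 and 640 in the control and 745 and 656 in the treated pools. Its log2 fold changes were 0.02 and 0.04, so the lower values of the brightest probe were not seen with it.

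*Sema3b* binds neuropilins and is known as a candidate tumor suppressor in lung. Its signals were 608 and 697 in the control and 739 and 735 in the treated pools. The treated pools lay above both controls, with log2 fold changes of 0.28 (female) and 0.08 (male) and a mean of 0.18 (SE 0.0777, limma adjusted p = 0.417). *Sema3f*, a ligand of NRP2 that repels axons and vessels, was among the members closest to 0 (mean −0.00, 95% interval −0.17 to 0.16). *Sema3g*, which also signals through NRP2, had a mean of 0.04 with opposite signs on the arrays (−0.06 and 0.15).

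The other class 3 ligands were too dim for the test. *Sema3e* differs from its class in that it can bind PLXND1 without a neuropilin. It had signals of 75.5 and 64.9 in the control and 55.4 and 49.5 in the treated pools. These are low signals, yet the treated pool was lower on both arrays, with log2 fold changes of −0.45 and −0.39 and the lowest mean of all 31 members (−0.42). *Sema3e* and *Sema4f* were singled out after their values had been seen, and no test was made at the main threshold. Where the threshold was lowered to a mean signal above 50, 28 members were tested and 0 were called, compared with 1.27% of 15620 genes. *Sema3e* had the smallest adjusted p among these members (limma, 0.0565, with a range of 0.0565 to 0.559 over the settings that tested it). The spots of its probe differed by an SD of 0.136 and 0.181 on the log2 scale on the 2 arrays.
Sema3e probe, first 30 bases, chr5:14256598-14256656 of mm9: cctccacccaatactgcacaaagtctgtat
*Sema3a*, the founding vertebrate semaphorin and a ligand of NRP1, had signals of 68.1 and 51.3 in the control and 58.8 and 60.4 in the treated pools. The sign differed between the arrays (−0.21 and 0.24). *Sema3d*, another ligand of neuropilins, lay at 0.09 and 0.11.

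The class 4 semaphorins are membrane proteins, several of which signal through B plexins. Of the 6 members, 5 were tested and 0 were called. All 5 had the same sign on both arrays: *Sema4a* (mean log2 fold change 0.12), *Sema4b* (0.10), *Sema4g* (0.09) and *Sema4c* (0.08) were above 0 and *Sema4d* (−0.08) was below. *Sema4c*, a ligand of PLXNB2, had signals of 10085 and 11446 in the control and 10730 and 11984 in the treated pools, so that the male pools were brighter than the female ones in either condition. *Sema4d*, a ligand of PLXNB1 that is best known from lymphocytes, had log2 fold changes of −0.01 and −0.16. The adjusted p-values of the class ran from 0.630 to 0.812.

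*Sema4f* was the dim member of class 4. It had signals of 50.8 and 43.9 in the control and 40.3 and 31.6 in the treated pools. The treated pool was lower on both arrays (−0.34 and −0.48, mean −0.41), and the groups did not overlap. A second probe for the gene was at the floor of 15 in all channels, so a single probe carries this value.
Sema4f brightest probe, first 30 bases, chr6:82862388-82862447 of mm9, minus strand: atggctttcatcagattctcaaggccttaa

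Class 5 semaphorins carry thrombospondin repeats in their extracellular part. *Sema5a*, a class member with both attractive and repulsive actions on axons, had the highest mean log2 fold change of all members (0.21, SE 0.122) and also the largest standard error. Its signals were 2813 and 1862 in the control and 2715 and 2585 in the treated pools. The male control pool stood apart at a low signal and the other 3 pools were close, which gave log2 fold changes of −0.05 and 0.47. The mean did not pass the test (limma adjusted p = 0.627), and the green-labelled pool was the brighter one on both arrays. *Sema5b*, its paralog, had the same signs, with −0.13 and 0.24. A dimmer *Sema5b* probe, with control signals of 85.9 and 71.4, had −0.01 and 0.00, so these values were not seen with it.

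Class 6 semaphorins are transmembrane ligands of A plexins. *Sema6a*, a ligand of PLXNA2 and PLXNA4, had signals of 615 and 599 in the control and 539 and 546 in the treated pools. The groups did not overlap and the arrays differed little (−0.19 and −0.14), so the standard error was small (0.0672) beside the mean of −0.16. Its unadjusted p was 0.0498 and the limma adjusted p 0.386. *Sema6d*, a ligand of PLXNA1 in the heart, had values of 0.08 and 0.10. *Sema6c* lay at −0.15 and 0.19 and the dim *Sema6b* at −0.11 and −0.30. *Sema7a*, the only class 7 member, is anchored to the membrane by a lipid and binds PLXNC1 and integrins containing the beta 1 chain. It had log2 fold changes of −0.00 and −0.08.

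*Plxnc1*, the receptor of SEMA7A, had the lowest mean among the members tested. Its signals were 393 and 285 in the control and 288 and 259 in the treated pools. The female control pool was bright, and the female treated pool lay level with the male control pool, so the groups overlapped. The log2 fold changes were −0.45 and −0.14, and the mean of −0.29 (SE 0.0898, 95% interval −0.51 to −0.08) had an unadjusted p of 0.0155 and a limma adjusted p of 0.217. As in *Sema3c*, the larger value was on the female array. The gene has a second probe, and the 2 are shown because their values differ; both lie on the minus strand of mm9, at chr10:94253879-94253938 and chr10:94257387-94257446.
Plxnc1 brightest probe, first 30 bases: ggatcccattagccaaatgcacagaatgtc
Plxnc1 second probe, first 30 bases: atgccaaggatataccaacctacaaagagg
The second probe was dim, with signals of 45.8 and 36.0 in the control and 48.4 and 35.6 in the treated pools. Its log2 fold changes were 0.08 and −0.02, in place of −0.45 and −0.14. With the mean of both probes in place of the brightest one, *Plxnc1* had a log2 fold change of −0.13 (limma adjusted p = 0.507, with a range of 0.183 to 1 over all settings).

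The A plexins are the signaling partners of neuropilins and the receptors of class 6 semaphorins. *Plxna2* had signals of 1343 and 1267 in the control and 1324 and 1548 in the treated pools. The male treated pool was the high one and the other 3 differed little, giving log2 fold changes of −0.02 and 0.29 (mean 0.13, SE 0.0901, limma adjusted p = 0.716). *Plxna3*, a receptor of SEMA3F with NRP2, lay at −0.17 and 0.04. *Plxna1* and *Plxna4* were dim, with mean log2 fold changes of −0.05 and −0.20.

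Among B plexins, *Plxnb1* had values of 0.20 and 0.06 and *Plxnb2* of 0.03 and −0.12. *Plxnb2*, which is known from epithelial repair in the kidney, had signals of 7409 and 8514 in the control and 7580 and 7833 in the treated pools. *Plxnb3* was dim and near 0 (−0.07 and −0.02). *Plxnd1*, a receptor of endothelial cells, had signals of 4472 and 4154 in the control and 3947 and 4063 in the treated pools. Both treated pools were below both controls, with log2 fold changes of −0.18 and −0.03 (limma adjusted p = 0.727). A second *Plxnd1* probe gave −0.05 and −0.09.

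The neuropilins had a similar pattern of pools. *Nrp1*, the coreceptor for SEMA3A and VEGFA, had signals of 2325 and 1948 in the control and 2328 and 2262 in the treated pools. *Nrp2*, the coreceptor for SEMA3F and VEGFC, had signals of 2102 and 1803 in the control and 2085 and 2060 in the treated pools. In both genes the male control pool was lowest and the other 3 pools were nearly level. The log2 fold changes were 0.00 and 0.22 for *Nrp1* (mean 0.11, SE 0.0785, limma adjusted p = 0.750) and −0.01 and 0.19 for *Nrp2* (mean 0.09, SE 0.0776, limma adjusted p = 0.810). A second *Nrp2* probe of lower signal gave 0.04 and 0.07.
Nrp1 probe, first 30 bases, chr8:131026650-131026709 of mm9: ttgtggatggtgtaaagttgaaaaaagata
Nrp2 brightest probe, first 30 bases, chr1:62865129-62865188 of mm9: tgagccagatcacgggaactcgagagcttt

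Known pairs of ligand and receptor can be set side by side, as mean log2 fold changes and not as levels. For *Sema7a* and its receptor *Plxnc1* these were −0.04 and −0.29. The pair of *Sema4d* and *Plxnb1* had −0.08 and 0.13, and that of *Sema4c* and *Plxnb2* had 0.08 and −0.04. For *Sema6a* and *Plxna2* the values were −0.16 and 0.13, and for *Sema3f* and its coreceptor *Nrp2* −0.00 and 0.09. The dim ligand *Sema3e* had −0.42 and its receptor *Plxnd1* −0.11. *Sema6a* can also be set beside the dim *Plxna4* (−0.20), *Sema3g* (0.04) beside *Nrp2* and the dim *Sema3a* (0.01) beside *Nrp1* (0.11). None of these genes was called, and *Sema3e*, *Sema3a* and *Plxna4* were not tested.

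How far a value rests on the choice of probe could be seen for part of the family. There were 45 probes for the 31 members, and 13 members had more than 1. In 9 of them at least 2 probes lay above the floor, and in 0 of these 9 did the mean log2 fold changes differ by over 0.5. That threshold was wider than the mean change of any member tested (−0.29 to 0.21), so the count says little about how well probes agreed. The widest gap was that of *Plxnc1* (0.32), followed by *Sema3c* and *Sema6d* (0.21 each). *Sema6a* had a dim probe at −0.19 and 0.16, and *Sema6d* one at 0.43 and 0.16. Means over the arrays can also hide a difference. The *Sema6c* probes had opposite signs on each array, with −0.15 and 0.19 for the brightest and 0.15 and −0.16 for the dimmer one. Extra probes for *Plxna4*, *Sema3a*, *Sema4d*, *Sema4f* and *Sema5b* were at the floor in all channels and give no value.

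**Figure D4:**
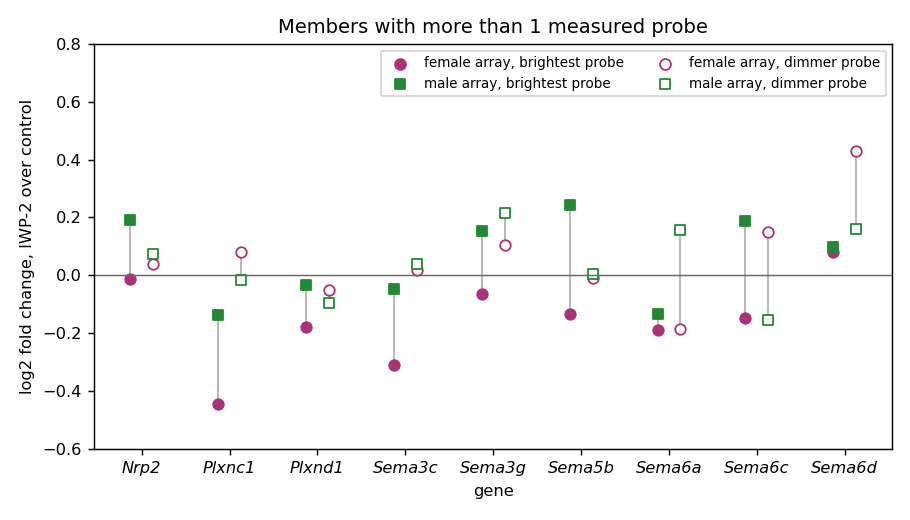
Log2 fold change of IWP-2 over control for the 9 members with more than 1 measured probe, with filled symbols for the brightest probe, open symbols for the dimmer one, circles for the female and squares for the male array. The values of Plxnc1 and Sema3c below 0 belong to the brightest probe and those of the dimmer probe lie near 0.

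Promoters were searched for the core letters read by TCF and LEF, the DNA-binding factors of canonical WNT signaling. In the RefSeq table for GRCm38.p6, 26 members had a window of 300 bases around a transcription start, and *Plxna1*, *Plxna4*, *Sema3b*, *Sema3f* and *Sema6a* had none. The letters CTTTGAT or CTTTGAA, which differ only in the last one, occurred on either strand in 2 of the 26 members (7.69%), compared with 9.88% of all genes with a window and 7.04% of the genes tested on the arrays. The 2 matches were in *Nrp2* and *Sema3e*, at −146 and −119 from the start. They are printed with the matched letters in capitals, at chr1:62703156-62703192 and chr5:14025142-14025178 of GRCm38.p6, plus strand, and in *Sema3e* the match is the reverse complement.
Nrp2 promoter: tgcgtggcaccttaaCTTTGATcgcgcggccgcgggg
Sema3e promoter: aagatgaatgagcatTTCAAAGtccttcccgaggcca
A match of letters is a description and no measured binding site. Of the 2 genes, *Nrp2* had a mean log2 fold change of 0.09 and *Sema3e* of −0.42.

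Among 48 other genes of semaphorin signaling, 42 were tested, and 1 fell with IWP-2, compared with 0.886% of all genes tested. This was *Chl1*, an adhesion molecule of the L1 family that binds NRP1 and takes part in the response to SEMA3A. Its signals were 429 and 508 in the control and 247 and 322 in the treated pools. Both treated pools were below both controls, with log2 fold changes of −0.80 and −0.66 (mean −0.73, SE 0.0718, limma adjusted p = 0.0104), and the gene also passed the 1.5-fold filter on both arrays. The call was lost under 3 alternatives, in which genes had only to be well above background, dim genes were kept, or the deposited series table was used. Where genes had only to be well above background or dim genes were kept, limma called 0 of 20169 and 0 of 29924 genes, so the loss was not particular to *Chl1*. The others did not pass, 5 of the 42 had an unadjusted p under 0.05 (12.9% of all genes did), and the median log2 fold change was −0.01. *Nrcam*, another adhesion molecule of the L1 family and a partner of neuropilins, had −0.28 and −0.01, and *L1cam* was too dim to be tested.

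*Chl1* is also made by glia and neurons. Of the 7 Schwann cell and neuron markers given here, 4 had an unadjusted limma p under 0.05, compared with 12.9% of all genes tested. All 7 markers were tested, with 0 called by limma and a median log2 fold change of −0.18. Their summed signal was 1923 and 1883 in the control pools (female, then male) and 1816 and 1688 in the treated pools. The sum was thus lower in the treated pool of both arrays, as was *Chl1*, while single markers ran from −0.29 to 0.24. It is weighted to the brightest marker, *Stmn2*, with 844 and 969 in the control and 799 and 785 in the treated pools. Of the 7 markers, 5 were lower on both arrays and 1, *S100b*, was higher on both. The part of nerve cells in the *Chl1* value was not tested.

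By group, the receptor partners had 11 of 16 genes tested, with *Chl1* as the 1 call. *Trem2*, a receptor of myeloid cells that associates with PLXNA1, had the highest mean of the genes tested in this group without passing (0.07 and 0.26, limma adjusted p = 0.463). *Met*, a receptor tyrosine kinase that associates with B plexins, was too dim to be tested, with signals of 45.0 and 62.0 in the control and 84.5 and 68.3 in the treated pools (0.91 and 0.14). The macrophage markers had 6 of 7 members tested, 0 called by limma and a median of 0.15. At an unadjusted limma p under 0.05 there was 1, compared with 12.9% of all genes tested. The 7 macrophage markers summed to 5475 and 6239 in the control and 6322 and 6647 in the treated pools, with *Fcgr1* at the floor. Their part in the *Trem2* value was not tested. The 4 growth factors that bind neuropilins were all tested and 0 were called, with *Pgf* at 0.20 and 0.16 (limma adjusted p = 0.316). *Vegfa* had a mean of 0.12 and *Vegfc* of −0.11.

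The intracellular partners had 27 of 28 genes tested and 0 called. *Dpysl4*, a member of the collapsin response mediator family that relays SEMA3A signals, had the lowest mean of the group at −0.31 (−0.44 and −0.18, limma adjusted p = 0.169). *Dpysl2*, the founding member of that family, had −0.31 and −0.08. *Rhoa* and *Rac1*, GTPases of the cytoskeleton that act downstream of plexins, lay close to 0 on both arrays.

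**Figure D5:**
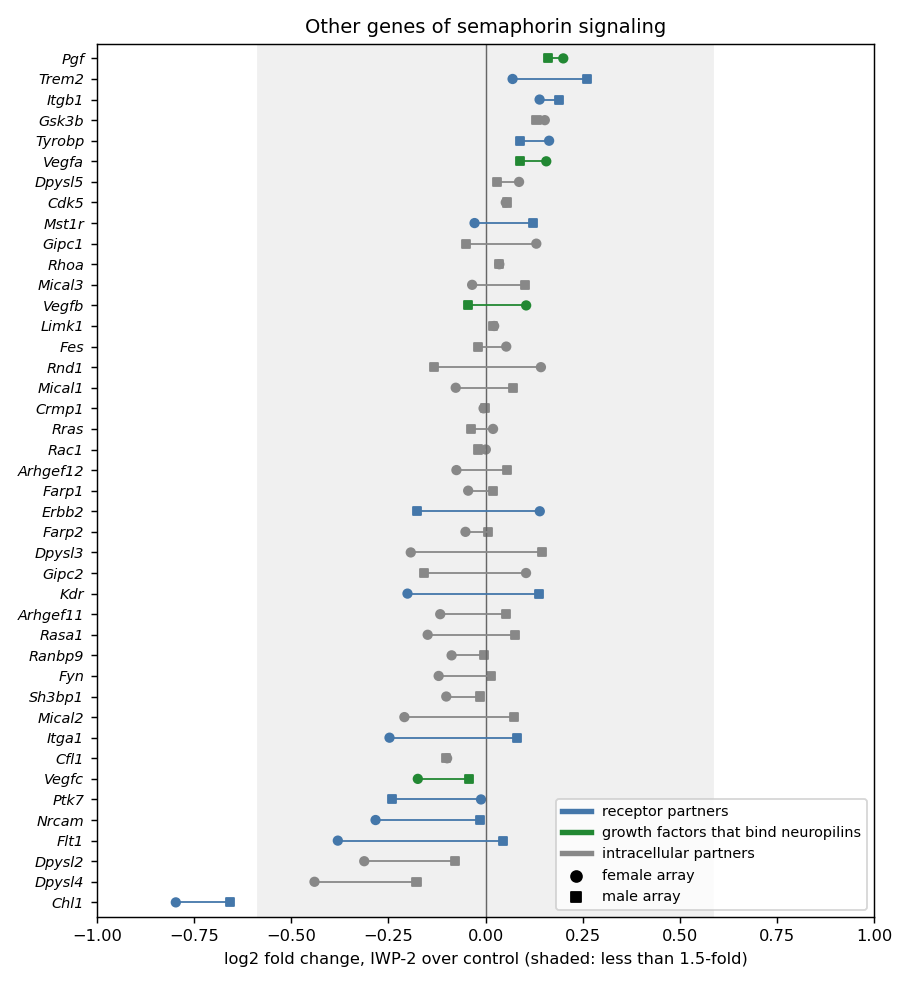
Log2 fold change of IWP-2 over control for the 42 tested genes of semaphorin signaling outside the family, ordered by their mean, in the female (circles) and male array (squares), with colours for receptor partners, growth factors that bind neuropilins and intracellular partners. Chl1 is the only gene outside the band of less than 1.5-fold, on both arrays.

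Markers of the cell types that could carry these genes had somewhat different signals between pools, across arrays that were not normalized to each other. No marker passed limma's test. At an unadjusted limma p under 0.05 there were 5 of 11 urothelium markers, compared with 12.9% of all genes tested. Smooth muscle had 1 of 7, endothelium 1 of 6 and fibroblasts 0 of 7. The 11 urothelium markers had a median log2 fold change of 0.13 and summed signals of 146989 and 177949 in the control and 183447 and 182292 in the treated pools. The 7 smooth muscle markers had a median of 0.16, and the sum was lowest in the male control pool at 84441, beside 98907 in the male treated pool and 98926 and 98938 in the female control and treated pools. Among the 23 members tested, the male control pool was the lowest of the 4 for 8 (34.8%), namely *Nrp1*, *Nrp2*, *Plxna2*, *Plxna3*, *Sema3g*, *Sema5a*, *Sema5b* and *Sema6c*, compared with 24.1% of all genes tested. The female control pool was the lowest for 9 of the 23 (39.1%), compared with 29% of all genes tested, and it also had the lowest urothelium sum.

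The 7 fibroblast markers had a median of −0.11, with sums of 145939 and 130788 in the control and 125978 and 131878 in the treated pools, so the female control pool was the highest. It was also the highest for 11 of the 23 members tested (47.8%, compared with 31% of all genes tested), among them *Sema3c*, *Plxnc1* and *Plxnd1* but also *Nrp2*, *Sema5a* and *Sema5b*. Endothelial markers had a median of −0.06 over 6 of 7 tested, and a summed signal of 13209 in the female control pool against 11823 to 12399 in the other pools. Whether the makeup of the pools had a part in the values of these members was not tested.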

How the data were processed

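Total RNA of P0 ureter cultures was labelled with AlexaFluor dyes and hybridised to 2 two-colour Agilent arrays. Per the file headers, the deposited intensities were produced by Feature Extraction 12.2.0.7 (10.7.3.1 in the submitters' processing notes) as processed signals, with the background subtracted and the dyes normalized linearly and by LOWESS, and the array annotation follows mm9. The deposited log10 ratios of red over green served to check the direction, and they equalled the log10 ratio of the processed signals within 0.001 for 82.8% and 83.1% of spots, with 0 listed for the others. A score is given in the deposited series table, a signed fold change per probe with 1 decimal and a median of 1 in both columns. It was used as an alternative. Its direction, found by comparison, was treated over control.

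Control spots (17263) and flagged spots (3.32% and 3.22% of 157716) were left out, and 0 spots were saturated. Within-array loess was run with limma 3.58.1 under R 4.3.3, after which spots were averaged and values floored at 15 and put on the log2 scale. Log2 ratios of treated over control on the 2 arrays were tested for a mean other than 0 with lmFit and eBayes and Benjamini-Hochberg adjustment over 14336 genes, with 6.49 degrees of freedom, 1 of them residual. Each ratio pairs the pools of 1 array. The number of arrays limits the precision, and nothing replicates a pool within a sex. The steps were tested on simulated data.

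Members were named with all values if called, if past 1.5-fold on either array, if among the 3 highest or 3 lowest means, if opposite by 1.2-fold or with probes that differ by 0.5, and both neuropilins. Other values given per pool were chosen after they were seen. Members and gene lists were chosen with earlier results of these data known. Some Schwann cell and neuron markers are not reported here, and the list's values are those of the others. Alternatives covered background, normalization, flagged spots, floor, probe summary, filters, moderation, single arrays and the series table.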

Additional observations from a re-analysis of the deposited data

Results flagged for a closer look

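*Sema3a* and *Sema6c* had log2 fold changes of at least 1.1-fold in opposite directions on the 2 arrays. For *Sema3a* the value on the male array was higher than that on the female array by 0.45 on the log2 scale, at signals too low for the test. For *Sema6c* it was higher by 0.34, and a second, dimmer probe of the gene had the opposite order (0.15 on the female and −0.16 on the male array). With 1 array per sex the difference was not tested, and sex cannot be told apart from dye orientation.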

How the results depend on the processing

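No member was called and none passed the 1.5-fold filter under any of the alternatives run on the array signals. The exception was the deposited series table, in which limma called 1 member lower (*Sema6a*, −0.14, adjusted p = 0.0162, with up to 0.768 under the others) and 4 higher (*Sema4b*, *Sema4c*, *Sema4g* and *Sema6d*), and 1 gene of the pathway lists lower (*Cfl1*) and 5 higher. Limma called 9.21% of all genes tested in that setting, beside 1.25% in the main one. All 5 members have equal values in both columns of that table, which is rounded to 1 decimal and has such ties for 34.94% of the genes tested, so that their spread is 0 by rounding. *Chl1* was not called there. Nor was it called, with 0 pathway genes lower, when genes were required only to be well above background or when dim genes were kept. There limma called 0 of 20169 and 0 of 29924 genes. At an unadjusted p under 0.05 there were 8 and 6 of 31 members, without a share over all genes to set beside them. The members' median ranged from −0.00594 without replicate 2 to 0.0662 without replicate 1, and reached 0.09 with median centring. *Sema3e* moved to −0.32 with normexp background (limma adjusted p = 0.0652, range 0.0565 to 0.559 where tested) and to −0.38 with median centring. *Sema4f* moved to −0.29 with normexp (0.117, range 0.117 to 0.762 where tested) and to −0.20 with the mean of its probes, the second of which lies at the floor. For *Plxnc1* the adjusted p ran from 0.183 to 1. Each ratio already pairs the pools that share a replicate number and an array, so the test is the paired one and no unpaired fit was made.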
